A study of Mus musculus with 16 samples.

Results

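RAW264.7 cells given vesicles of PC3M cells for 48 h were compared directly with RAW264.7 cells given RANKL for 48 h. RAW264.7 is a mouse macrophage line that serves as an osteoclast precursor, and PC3M is a metastatic line of human prostate cancer. The comparison takes 4 of the 16 libraries of the series, 2 of cells given extracellular vesicles at 30 µg/mL (EV) and 2 of cells given recombinant mouse RANKL, a fusion with GST, at 10 ng/mL. All cells attached for 12 h before the addition. Libraries of cells given only phosphate-buffered saline (PBS) for 48 h, and of EV and RANKL at 72 h, are given beside them, with 2 libraries per group (n = 2 throughout). Cells given both agents for 48 h (EV+RANKL) are shown for a few genes. All groups are of 1 cell line, the vesicles are human and the reading cells are mouse, and the doses of the agents are masses of different things. How the vesicles were isolated is not given in the sources used here.

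RANKL is the ligand of RANK, a receptor on cells of the macrophage lineage. RANK acts through adaptors of the TRAF family on the classical and the alternative NF-kB pathways. It also acts on MAP kinases and AP-1, and on the calcium-dependent factor NFATc1. NFATc1 switches on the genes that an osteoclast uses to fuse, to pump acid and to digest bone matrix. Factors that keep the precursor a macrophage, among them IRF8 and RBP-J, hold this programme back. Extracellular vesicles are membrane particles that carry proteins, lipids and RNA from the cell that released them, and tumour vesicles have been studied as signals to bone. The comparison asks which parts of the response to vesicles and of the response to RANKL differ at the same time point.

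The labelled cell type was checked first. The macrophage genes Csf1r, Cd68 and Lyz2 were present in all 4 libraries. Among markers for epithelium and carcinoma the table held 6 of 15, none of which reached 1 RPKM in 2 libraries. Their summed level was 0.0273 and 0.0344 RPKM with EV and 0.049 and 0.0651 RPKM with RANKL. RPKM is the read number relative to gene length and library size. Of 13 stromal and bone-forming markers, 9 were in the table and 0 reached that level, and they summed to 1.09 and 1.41 RPKM with EV and to 0.546 and 0.701 RPKM with RANKL. With no filter on low values Runx2, the highest of them at no more than 0.867 RPKM in any library of the series, was called higher with EV (0.49, limma adjusted p = 0.0231). What part these markers have in the results was not tested. Of 24 markers of other blood cells, 3 were tested, and their list summed to 2.90 and 3.45 RPKM with EV and to 2.96 and 2.16 RPKM with RANKL. Mitochondrial genes took 21.2% and 19.3% of the summed RPKM with EV and 23.6% and 22.6% with RANKL, so the groups did not overlap. The estimated depth was 18.51 to 19.92 M reads (M for mega) in these 4 libraries. Among the 72 h libraries 5 stand apart (RANKL replicate 2, both EV and both EV+RANKL). In 1559 of 10365 tested genes these 5 all lie above or all below the 11 other libraries.

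At 48 h, 720 of the 10365 tested genes (6.95%) differed between EV and RANKL at an adjusted p under 0.05 in limma. With EV, 460 (4.44%) were higher and 260 (2.51%) were lower. Differences are on the log2(RPKM + 1) scale, EV minus RANKL, with the standard error (SE) of the fit. The scale understates folds of genes near or under 1 RPKM. The difference was at least 2-fold on this scale in 116 of the higher and 30 of the lower genes, and its median size was 0.61 among the 720. The split leaned on the scaling: with libraries rescaled to their sum without mitochondrial genes, 417 genes were higher and 384 lower, so 52.1% of calls were higher instead of 63.9%. The libraries of both groups did not overlap in 63.1% of all tested genes, 27% with EV above and 36.1% with EV below. In bulk libraries, fewer cells of a type and less RNA per cell cannot be told apart.

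**Figure D1:**
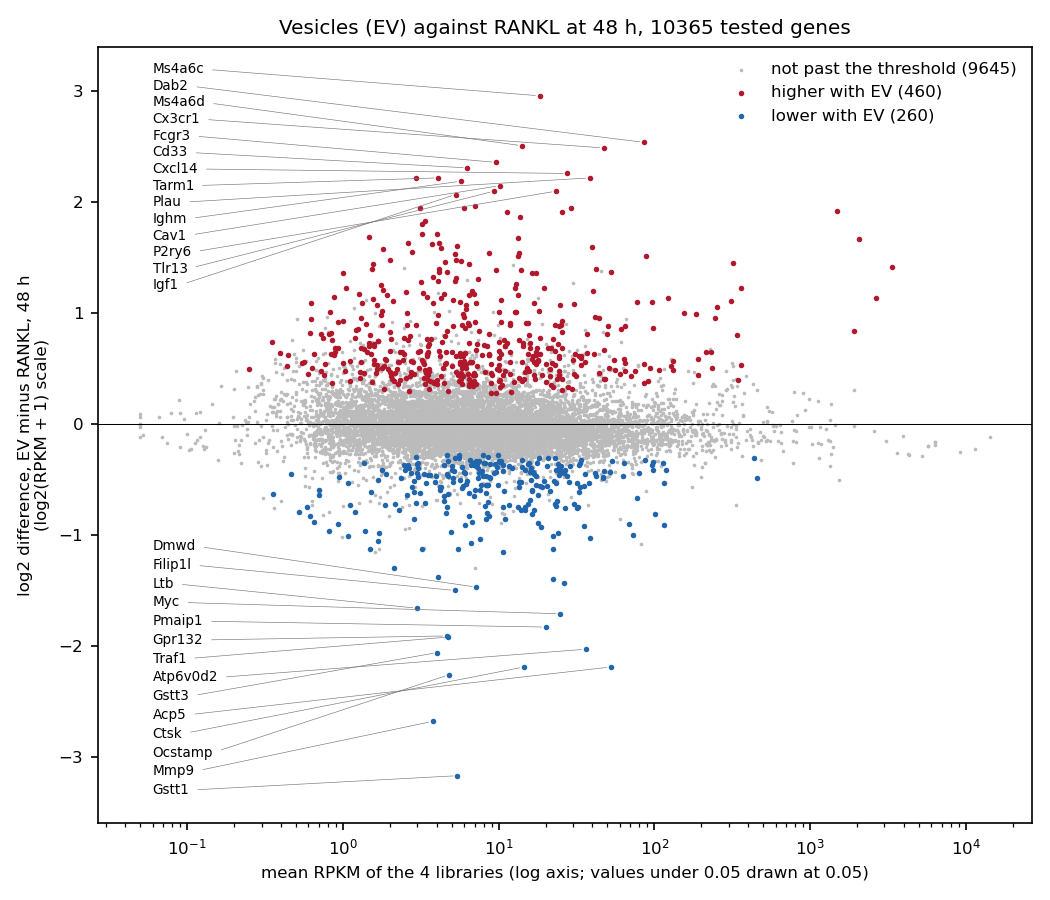
Each point is 1 of 10365 tested genes, with the mean RPKM of the 4 libraries on a log axis across and the log2 difference (EV minus RANKL, 48 h) upwards, and the 28 genes of largest difference are named. The 460 genes higher with EV (red) include Spp1 at 2357 and 2341 RPKM with EV, and the 260 lower with EV (blue) reach a difference of -3.17 in Gstt1.

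The promoters of 3 leading genes are shown because they come from both sides of the comparison: Acp5 and Traf1 were lower with EV, and Ms4a6c was higher. Each is 300 bases of RefSeq's GRCm38.p6, 250 before and 50 after an annotated start, 5′ to 3′ on the gene's strand. Capitals mark GGAAAA, the core that NFAT factors bind, or its reverse complement TTTTCC. For Traf1 this is chr2:34961723-34962022 (minus strand), for Ms4a6c chr19:11469118-11469417 (plus strand), and for Acp5 chr9:22130549-22130848 (minus strand), 1 of 3 windows that the table lists for Acp5.
Acp5: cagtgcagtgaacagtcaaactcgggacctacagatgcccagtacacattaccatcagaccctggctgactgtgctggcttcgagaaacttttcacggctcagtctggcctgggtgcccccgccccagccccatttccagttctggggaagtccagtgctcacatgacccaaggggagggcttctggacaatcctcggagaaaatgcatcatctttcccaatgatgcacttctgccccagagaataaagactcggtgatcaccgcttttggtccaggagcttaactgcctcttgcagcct
Traf1: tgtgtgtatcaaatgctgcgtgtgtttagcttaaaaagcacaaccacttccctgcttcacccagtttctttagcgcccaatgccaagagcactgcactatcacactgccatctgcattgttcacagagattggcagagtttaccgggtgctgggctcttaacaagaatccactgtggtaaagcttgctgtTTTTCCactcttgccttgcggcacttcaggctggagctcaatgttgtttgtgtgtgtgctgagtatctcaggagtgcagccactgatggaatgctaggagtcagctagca
Ms4a6c: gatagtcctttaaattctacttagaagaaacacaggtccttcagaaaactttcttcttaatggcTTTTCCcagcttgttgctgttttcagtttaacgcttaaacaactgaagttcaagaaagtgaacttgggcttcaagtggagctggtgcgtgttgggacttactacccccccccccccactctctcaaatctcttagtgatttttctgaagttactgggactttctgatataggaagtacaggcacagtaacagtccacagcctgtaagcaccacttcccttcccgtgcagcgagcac

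GGAAAA lies 60 bases before the Traf1 start and 186 bases before the Ms4a6c start, and the Acp5 window shown does not hold these letters. Another of the 3 Acp5 windows holds them 167 bases before its start, and the third does not. A promoter table entry was found for 7798 of the tested genes, with 9941 windows. GGAAAA on either strand was in 20.7% of all windows, 23.3% of those of genes higher with EV and 21.9% of those of genes lower with EV. The AP-1 letters TGACTCA were in 3.48%, 4.04% and 4.09% in the same order. The interferon response element was in 3.06%, 2.91% and 2.97%, and the antioxidant response letters TGACNNNGC in 14.4%, 13.9% and 13.4%. The shares of both gene sets are close to those of all windows. The motifs can overlap each other, and a match is only a match of letters.

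Osteoclast resorption genes that differed were lower with EV, apart from Ctsl. Of 20 resorption genes tested, 8 were lower and 1 higher with EV, against 2.51% and 4.44% of all tested genes. The list's median difference was -0.18 against -0.03 over all tested genes. Acp5 encodes the tartrate-resistant acid phosphatase used to stain osteoclasts. It measured 20.5 and 16.2 RPKM with EV and 88.0 and 85.4 RPKM with RANKL, against 0.564 and 0.872 RPKM with PBS. Both stimuli were thus above PBS, EV at a lower level, with no overlap. RANKL exceeded EV 4.73-fold in mean RPKM (difference -2.19 ± 0.26, limma adjusted p = 0.00041). With both agents together Acp5 reached 209 and 168 RPKM.

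Atp6v0d2, a subunit of the proton pump that acidifies the resorption pit, had the same order. It was at 16.7 and 10.8 RPKM with EV, 63.8 and 53.3 RPKM with RANKL and 0.413 and 0.518 RPKM with PBS (EV minus RANKL -2.03 ± 0.32, limma adjusted p = 0.00233). Mmp9, a gelatinase that digests matrix, differed in another way. It was at 0.325 and 0.211 RPKM with EV, near the 0.332 and 0.122 RPKM with PBS, and at 8.93 and 5.61 RPKM with RANKL (-2.68 ± 0.36, limma adjusted p = 0.00103). Against PBS, 1.29% of the tested genes differed with EV and 14.8% with RANKL, the latter made up of 6.47% higher and 8.29% lower than PBS. Acp5 and Atp6v0d2 rose with EV by 3.49 and 3.31 over PBS (limma adjusted p = 2.5e-05 and 0.00021), while Mmp9 differed by 0.05 (limma adjusted p = 0.993).

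Ctsk, the collagen-degrading cathepsin K, measured 5.19 and 3.92 RPKM with EV, 28.5 and 20.5 RPKM with RANKL and 2.23 and 2.11 RPKM with PBS (EV minus RANKL -2.19 ± 0.49, limma adjusted p = 0.0189). That call was lost without any 1 of the 4 libraries (adjusted p at most 0.152). Src, Slc9b2, Car2 and Rufy4 made up the other genes lower with EV, at -1.13, -1.01, -0.98 and -0.83. Ctsl, a lysosomal cathepsin of macrophages, was the 1 gene of the list that was higher with EV, 2.35-fold in mean RPKM (1.23 ± 0.18, limma adjusted p = 0.00189). Without 1 of the 4 libraries, 3 of the list remained lower in each of the 4 fits.

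**Figure D2:**
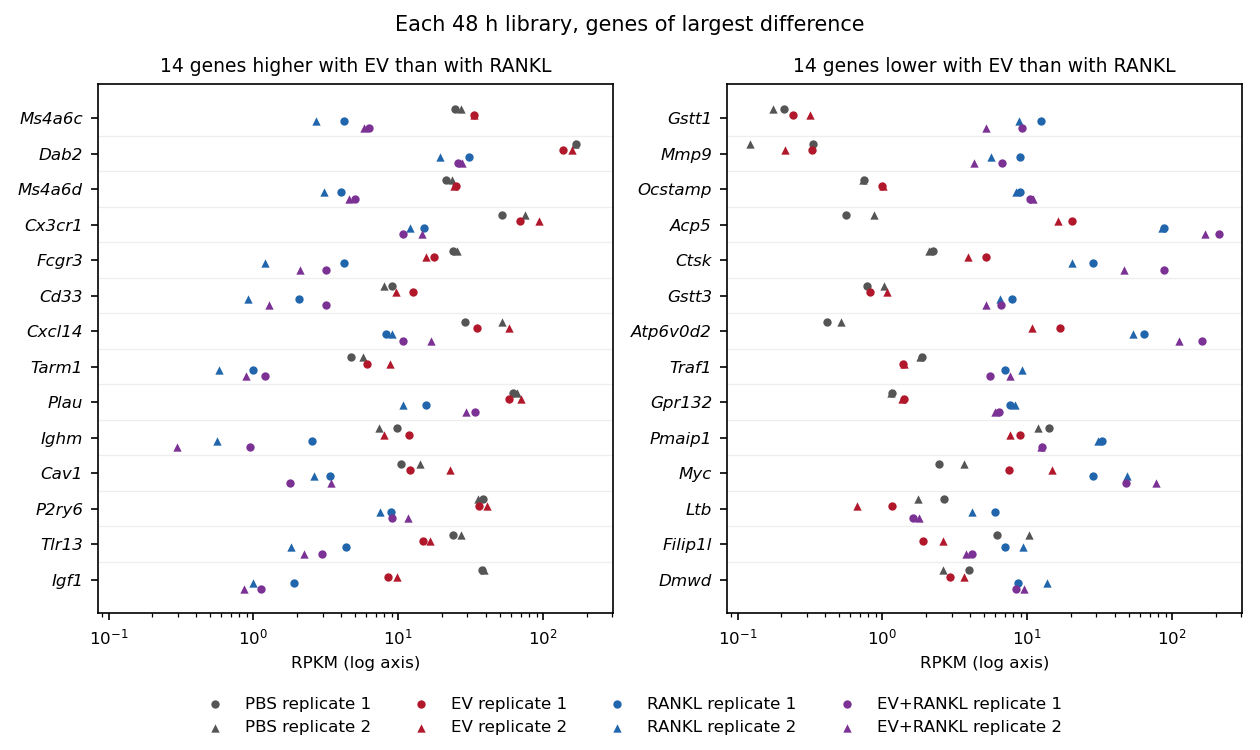
RPKM on a log axis of the 28 genes of largest difference in each of the 8 libraries of 48 h, with circles for replicate 1 and triangles for replicate 2. On the left the EV libraries lie near PBS for most genes and RANKL lies below, with Igf1 as an exception, and on the right Acp5 and Atp6v0d2 are intermediate with EV while Mmp9 and Gstt1 are near PBS.

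Of 23 tested members of the list of fusion and costimulation, 2 were lower (Ocstamp and Atp6v0d2) and 2 were higher with EV (Trem2 and Adam8). The list's median was -0.09, and 2.51% of all tested genes were lower and 4.44% higher. Ocstamp, a membrane protein that osteoclast precursors need to fuse, was at 0.988 and 1.01 RPKM with EV, 8.84 and 8.36 RPKM with RANKL and 0.745 and 0.739 RPKM with PBS (-2.26 ± 0.21, limma adjusted p = 0.00011). Its level with EV was close to PBS, and the RANKL libraries lay 8.62-fold above EV. Dcstamp, its partner in fusion, was at 1.73 and 1.71 RPKM with EV and 4.69 and 5.19 RPKM with RANKL, which missed the threshold (-1.12 ± 0.35, limma adjusted p = 0.0726). Trem2, a costimulatory receptor that macrophages also carry, was at 28.3 and 37.8 RPKM with EV and 18.2 and 17.7 RPKM with RANKL (0.83 ± 0.13, limma adjusted p = 0.00272). Adam8 was called at 0.49 ± 0.12, a call lost without any 1 of the 4 libraries (limma adjusted p at most 0.28).

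Transcription factors of the osteoclast programme were lower with EV in 8 of 22 tested cases and higher in 0. The list's median was -0.23, and 2.51% of all tested genes were lower and 4.44% higher. Nfatc1, the master factor of the programme, was at 46.7 and 49.7 RPKM with EV, 93.9 and 101 RPKM with RANKL and 11 and 12.9 RPKM with PBS. Every EV library lay above both PBS libraries and below both RANKL libraries, with RANKL 2.03-fold above EV (-1.0 ± 0.17, limma adjusted p = 0.00325). Jdp2, an AP-1 partner, was also intermediate at 47.1 and 47.5 RPKM with EV, 91.5 and 86.9 RPKM with RANKL and 16.6 and 13.7 RPKM with PBS (-0.90 ± 0.14, limma adjusted p = 0.00209). Fosl2, an AP-1 member, was at 12.9 and 11.4 RPKM with EV, 24.1 and 22.8 RPKM with RANKL and 2.72 and 3.45 RPKM with PBS (-0.89 ± 0.17, limma adjusted p = 0.009). The Fosl2 call was lost without EV replicate 2 and without either RANKL library (adjusted p at most 0.0961).

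Myc, a growth factor-responsive regulator that osteoclast precursors raise early, was at 7.51 and 14.9 RPKM with EV, 28.4 and 48.7 RPKM with RANKL and 2.47 and 3.67 RPKM with PBS (-1.71 ± 0.33, limma adjusted p = 0.00863). Its call was lost without EV replicate 1 and without RANKL replicate 2 (adjusted p at most 0.103). The list of 25 ribosome biogenesis genes and Myc targets had 0 calls in limma in either direction, 0 at an unadjusted p under 0.05, and a median of -0.07. Over the list of transcription factors, 3 or 4 were lower in each fit without 1 of the 4 libraries.

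Feedback genes of NF-kB and genes of its alternative pathway that differed were lower with EV, apart from Bcl2l1. Of 21 tested genes of NF-kB feedback and survival, 8 were lower and 1 (Bcl2l1, an inhibitor of apoptosis, at 1.12) was higher with EV. Among all tested genes 2.51% were lower and 4.44% higher. The Bcl2l1 call was lost without either EV library and without RANKL replicate 2 (limma adjusted p = 0.0641 to 0.0847). Nfkb2, precursor of the alternative pathway's subunit, was at 10.7 and 12.9 RPKM with EV, 29.6 and 35.7 RPKM with RANKL and 14.5 and 12.0 RPKM with PBS (-1.40 ± 0.19, limma adjusted p = 0.00095). Traf1, an NF-kB-induced adaptor of TNF receptors, was at 1.38 and 1.40 RPKM with EV, 7.07 and 9.17 RPKM with RANKL and 1.87 and 1.82 RPKM with PBS (-1.92 ± 0.18, limma adjusted p = 0.00011). For both genes the EV libraries were at or below the PBS range except EV replicate 2 of Nfkb2, which lay within it.

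Birc3, a ubiquitin ligase of TNF receptor complexes, was at 12.0 and 11.1 RPKM with EV and 21.7 and 20.6 RPKM with RANKL (-0.81 ± 0.11, limma adjusted p = 0.00095). Nfkbie, an inhibitor of NF-kB, was at 5.60 and 6.08 RPKM with EV and 9.57 and 11.3 RPKM with RANKL (-0.74 ± 0.13, limma adjusted p = 0.00384), a call lost without RANKL replicate 2 (adjusted p = 0.0597). Pmaip1, a promoter of apoptosis, was at 8.92 and 7.57 RPKM with EV, 32.8 and 30.9 RPKM with RANKL and 14.1 and 11.9 RPKM with PBS (-1.83 ± 0.15, limma adjusted p = 4.9e-05). EV lay below PBS in both libraries of Pmaip1, a difference that missed the threshold (-0.60, limma adjusted p = 0.0876). Between 4 and 6 members of this list stayed lower without 1 of the 4 libraries.

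No gene on the list of RANK and its transducers passed the test. That list does not hold Nfatc1 and Nfkb2, which were called lower with EV as given above. Tnfrsf11a, the gene of RANK, was at 32.2 and 35.9 RPKM with EV and 38.3 and 36.5 RPKM with RANKL (-0.13 ± 0.20, limma adjusted p = 0.766). Of 22 tested genes of RANK signalling, 0 were called in limma in either direction, where 6.95% of all tested genes were called. At an unadjusted p under 0.05, 6 of the 22 were lower. The smallest limma adjusted p was 0.0543 for the kinase gene Mapk8 (-0.33 ± 0.09). With the 5 libraries that stand apart left out of the fit, 5 members were lower with EV. Oscar, a costimulatory receptor of osteoclasts, and Itgb3, their integrin, were under 2 RPKM in every EV and RANKL library of 48 h. Both missed the threshold (-0.69 and -0.12, limma adjusted p = 0.347 and 0.728). Oscar was at 0.369 and 0.0867 RPKM with EV and 1.48 and 0.568 RPKM with RANKL. Itgb3 was at 0.0177 and 0.0271 RPKM with EV and 0.164 and 0.0678 RPKM with RANKL. These levels rest on few reads, so whether the genes differ cannot be judged here.

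Factors that restrain osteoclast formation fell on both sides: 3 of 20 tested were higher and 2 lower with EV. Among all tested genes the shares were 4.44% higher and 2.51% lower. Irf8, a macrophage factor that represses the programme, was at 5.49 and 5.62 RPKM with EV, 0.960 and 0.808 RPKM with RANKL and 6.41 and 6.44 RPKM with PBS. EV lay below PBS by a difference that missed the threshold (-0.18, limma adjusted p = 0.932), and it exceeded RANKL 6.28-fold (EV minus RANKL 1.80 ± 0.26, limma adjusted p = 0.00156). Irf8 overlaps a predicted gene on the same strand, so their reads may be mixed. Rbpj, the Notch effector, was at 48.8 and 45.4 RPKM with EV and 25.7 and 27.0 RPKM with RANKL, against 48.8 and 45.5 RPKM with PBS (0.81 ± 0.12, limma adjusted p = 0.00143). Nfkbie was 1 of the 2 lower members, and Cyld, a deubiquitinase, was the other at -0.38 ± 0.08, a call lost without any 1 of the 4 libraries (limma adjusted p at most 0.153). Bcl6 missed the threshold (0.28 ± 0.15, limma adjusted p = 0.302).

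Macrophage identity genes were the largest group higher with EV than with RANKL. Of 22 tested, 13 were higher and 0 were lower, and 21 had a positive difference, with a median of 1.01. Among all 10365 tested genes 4.44% were higher, 2.51% were lower, and 4590 had a positive difference. Against PBS, 6 of the 22 were lower and 0 higher with EV (median -0.57), where 0.685% of all tested genes were lower. With RANKL 18 were lower and 0 higher than PBS (median -1.74), where 8.29% of all tested genes were lower. Cx3cr1, the fractalkine receptor, was at 68.7 and 93.9 RPKM with EV, 15.1 and 12.0 RPKM with RANKL and 52.0 and 74.8 RPKM with PBS (2.49 ± 0.28, limma adjusted p = 0.00035). EV overlapped PBS and lay above RANKL. The annotated span of Cx3cr1 overlaps Gorasp1 and Csrnp1 on its strand and Wdr48 on the other, so their reads may be mixed. Fcgr1, an activating Fc receptor, was at 11.1 and 12.6 RPKM with EV, 2.24 and 2.30 RPKM with RANKL and 16.2 and 20.4 RPKM with PBS (1.97 ± 0.19, limma adjusted p = 0.00011). Msr1, a scavenger receptor, was at 50.2 and 63.7 RPKM with EV, 24.4 and 23.6 RPKM with RANKL and 79.4 and 95.6 RPKM with PBS (1.20 ± 0.13, limma adjusted p = 0.0002). Csf1r, the M-CSF receptor, was at 269 and 297 RPKM with EV and 190 and 170 RPKM with RANKL (0.65 ± 0.11, limma adjusted p = 0.00377), a call lost without EV replicate 2 and without RANKL replicate 2 (adjusted p at most 0.0605).

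Igf1, a growth factor secreted by macrophages, was lowered by both stimuli. It was at 37.8 and 39.3 RPKM with PBS, 8.48 and 9.80 RPKM with EV and 1.91 and 0.994 RPKM with RANKL (EV minus RANKL 2.07 ± 0.28, limma adjusted p = 0.00113). Against PBS it differed by -1.97 with EV and by -4.04 with RANKL (limma adjusted p = 0.00479 and 4.1e-06). Fcgr3, another Fc receptor, was at 17.6 and 15.5 RPKM with EV and 4.24 and 1.21 RPKM with RANKL (2.36 ± 0.45, limma adjusted p = 0.00762), a call lost without either EV library and without RANKL replicate 2 (adjusted p at most 0.0936). Over the macrophage list, between 6 and 13 members were higher in the fits without 1 of the 4 libraries.

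Other genes with the largest excess with EV lie outside that list. Ms4a6c and Ms4a6d, membrane proteins of the MS4A family, stood at 33.3 and 33.1 RPKM and at 25.1 and 24.2 RPKM with EV. With RANKL they were at 4.21 and 2.70 RPKM and at 4.03 and 3.05 RPKM (2.96 ± 0.23 and 2.51 ± 0.14, limma adjusted p = 4.8e-05 and 2.5e-06). Reads of such close paralogs may be split between them, and Ms4a6c overlaps a transcript on the other strand. Dab2, an endocytic adaptor, was at 138 and 157 RPKM with EV, 30.8 and 19.3 RPKM with RANKL and 168 and 166 RPKM with PBS (2.54 ± 0.31, limma adjusted p = 0.00048). In all 3 genes RANKL was apart from both EV and PBS.

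Plau, the urokinase protease, was at 58.1 and 70.0 RPKM with EV, 15.4 and 10.7 RPKM with RANKL and 62.3 and 65.5 RPKM with PBS (2.22 ± 0.23, limma adjusted p = 0.00017). P2ry6, a nucleotide receptor, was at 36.1 and 40.9 RPKM with EV and 8.93 and 7.48 RPKM with RANKL (2.10 ± 0.24, limma adjusted p = 0.00035). Cxcl14, a chemokine, was at 34.9 and 58.2 RPKM with EV and 8.23 and 9.05 RPKM with RANKL (2.26 ± 0.34, limma adjusted p = 0.00189). The remaining genes of the 14 with the largest excess were Cd33 (2.31), Tarm1 (2.22), Ighm (2.19), Cav1 (2.15) and Tlr13 (2.10), besides the macrophage genes given above. Cd33 lost its call without RANKL replicate 2 (limma adjusted p = 0.0586), and Ighm without EV replicate 1 and without RANKL replicate 2 (limma adjusted p at most 0.117).

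Of 20 Toll-like receptor genes and partners, 5 were higher and 0 lower with EV, against 4.44% and 2.51% of all tested genes. The list's median was 0.32. Tlr2, a receptor for lipoproteins, was at 64.1 and 89.2 RPKM with EV, 27.2 and 30.3 RPKM with RANKL and 81.5 and 89.5 RPKM with PBS (1.37 ± 0.15, limma adjusted p = 0.0003). Tlr13, a receptor for bacterial ribosomal RNA, was at 14.7 and 16.6 RPKM with EV and 4.32 and 1.83 RPKM with RANKL (2.10 ± 0.32, limma adjusted p = 0.00209). Cd14, a co-receptor for lipopolysaccharide, was 2.09-fold higher with EV (1.06 ± 0.22, limma adjusted p = 0.0133), a call lost without any 1 of the 4 libraries (adjusted p at most 0.128). Between 2 and 4 of the list were higher without 1 of the 4.

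Of 20 tested inflammatory cytokines and chemokines, 5 were higher and 0 lower with EV, with a median of 0.67, and 3 to 5 were higher without 1 of the 4 libraries. Spp1, the secreted matrix protein osteopontin, had the highest level of them at 2357 and 2341 RPKM with EV against 694 and 553 RPKM with RANKL (1.92 ± 0.21, limma adjusted p = 0.0003). Ccl3, a chemokine, was at 183 and 153 RPKM with EV, 81.9 and 68.9 RPKM with RANKL and 269 and 192 RPKM with PBS (1.14 ± 0.18, limma adjusted p = 0.00248). Ptgs2, the inducible cyclooxygenase, was 2.42-fold higher with EV (1.07 ± 0.15, limma adjusted p = 0.00125). In none of these 3 genes did EV differ from PBS past the threshold (limma adjusted p = 0.96, 0.351 and 0.96). Over all tested genes 4.44% were higher and 2.51% lower with EV than with RANKL.

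**Figure D3:**
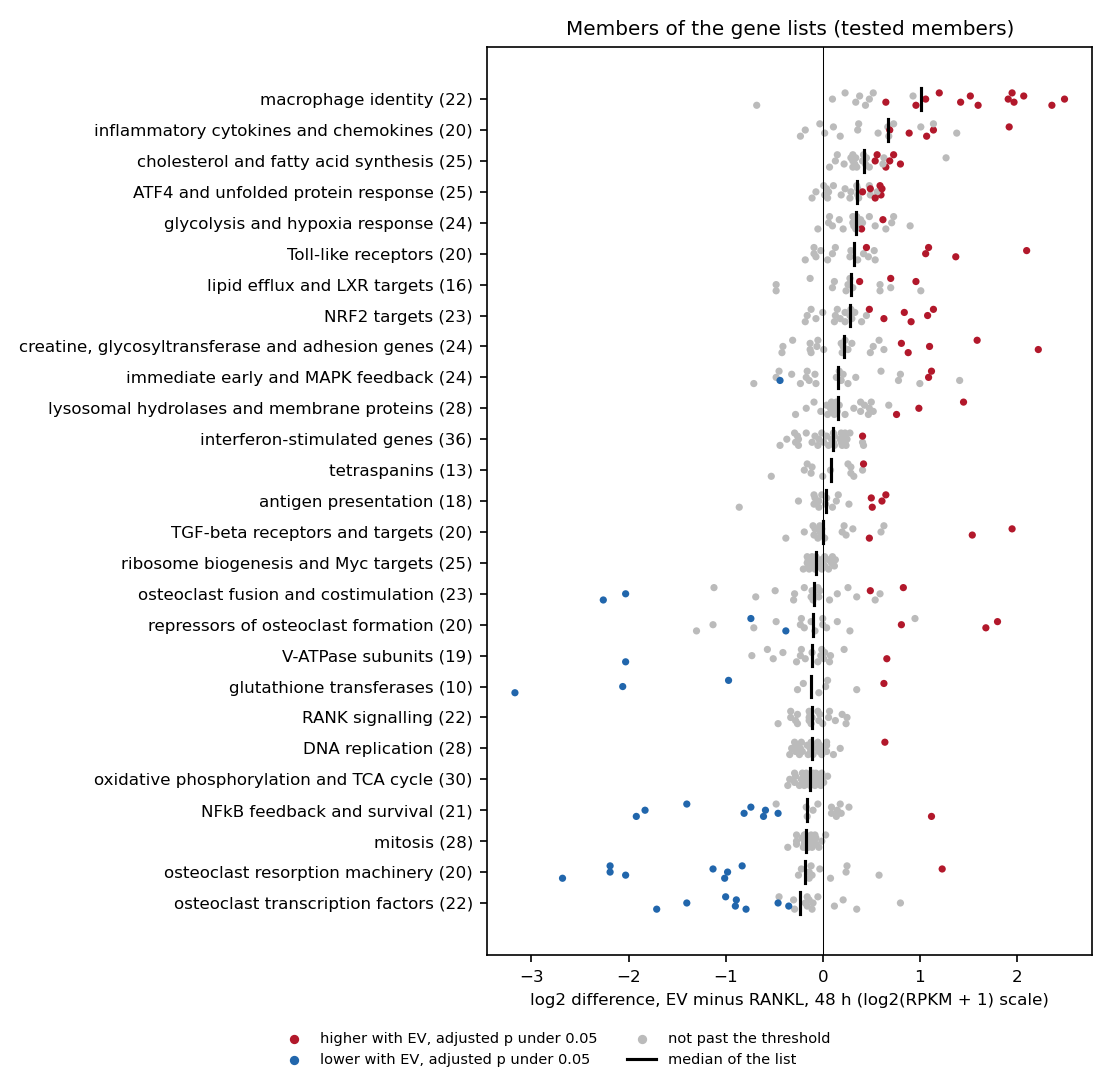
Each row is a gene list with its number of tested members, each point is a member's log2 difference (EV minus RANKL, 48 h) and the bar is the list's median. Macrophage identity genes have the highest median (1.01), osteoclast transcription factors the lowest (-0.23), and the osteoclast lists hold a few members far to the left while most members lie near 0.

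Of interferon-stimulated genes, 1 passed the test. Of 36 tested, 1 was higher with EV (Bst2, an antiviral membrane protein, 0.41 ± 0.11, limma adjusted p = 0.0471) and 0 were lower, with a median of 0.11. Of all tested genes 4.44% were higher with EV than with RANKL. The Bst2 call was lost without any 1 of the 4 libraries (adjusted p at most 0.229). Against PBS, 10 of these 36 genes were lower with EV, where 0.685% of all tested genes were lower, and 26 were lower with RANKL, where 8.29% of all tested genes were lower. The median against PBS was -0.54 with EV and -0.65 with RANKL, and both comparisons share the PBS libraries. Of 18 antigen presentation genes, 4 were higher and 0 lower with EV, with a median of 0.04. They were H2-DMa, a class II chaperone (0.61), H2-M3 (0.65), Nlrc5, an activator of class I genes (0.51), and Psmb8, an immunoproteasome subunit (0.50). At most 1 of the 4 remained called without any 1 of the 4 libraries.

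Ferritin and haem genes were among those higher with EV than with RANKL, where 4.44% of all tested genes were higher. Of 23 tested NRF2 targets, 6 were higher and 0 lower, with a median of 0.28, and 2 to 5 were higher without 1 of the 4 libraries. Against PBS, 4 of the 23 were lower and 0 higher with EV (median -0.32), where 0.685% of all tested genes were lower. With RANKL 15 were lower and 0 higher than PBS (median -0.6), where 8.29% of all tested genes were lower. Fth1 and Ftl1, the subunits of ferritin, were 2.21-fold and 1.80-fold higher with EV than with RANKL (1.14 ± 0.17 and 0.84 ± 0.13, limma adjusted p = 0.00183 and 0.00198). Hmox1, which degrades haem, was at 37.3 and 46.5 RPKM with EV, 21.5 and 17.2 RPKM with RANKL and 59.9 and 54.1 RPKM with PBS (1.08 ± 0.19, limma adjusted p = 0.00501). Its call was lost without EV replicate 2 and without RANKL replicate 2 (adjusted p at most 0.0748).

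Glutathione transferases, in a comparison where 2.51% of all tested genes were lower and 4.44% higher, held the leading gene on the lower side, Gstt1. Of 10 tested, 3 were lower and 1 (Gstm1, 0.63 ± 0.10) was higher with EV, and the Gstm1 call was lost without EV replicate 2 (limma adjusted p = 0.0548). Gstt1, a theta-class transferase, was at 0.240 and 0.314 RPKM with EV, 0.210 and 0.177 RPKM with PBS and 12.4 and 8.80 RPKM with RANKL. RANKL exceeded EV 38.2-fold in mean RPKM, and on the log2 scale Gstt1 had the largest fall of the 28 leading genes (-3.17 ± 0.37, limma adjusted p = 0.00041). Gstt3, its neighbour in the family, was at 0.817 and 1.08 RPKM with EV, 0.787 and 1.03 RPKM with PBS and 7.82 and 6.44 RPKM with RANKL (-2.06 ± 0.24, limma adjusted p = 0.00041). Reads of these close relatives may be split. Gstp1 was at 3.43 and 2.61 RPKM with EV and 8.16 and 5.67 RPKM with RANKL (-0.97 ± 0.21, limma adjusted p = 0.0141), a call lost without EV replicate 2 and without RANKL replicate 1 (adjusted p at most 0.152).

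Of 28 lysosomal hydrolases and membrane proteins, 3 (Ctsb, Lgmn and Ctsc, all proteases) were higher and 0 lower with EV, with a median of 0.16, and 1 or 2 were higher without 1 of the 4 libraries. Ctsb, cathepsin B, was at 469 and 463 RPKM with EV, 190 and 152 RPKM with RANKL and 730 and 625 RPKM with PBS (1.45 ± 0.22, limma adjusted p = 0.00197). Lgmn, the protease legumain, was 1.99-fold higher with EV (0.99 ± 0.20, limma adjusted p = 0.00992), a call lost without either EV library and without RANKL replicate 2 (adjusted p at most 0.112). Of 19 proton pump subunits, Atp6v0d2 was lower and Atp6v0a1 was higher with EV (0.66 ± 0.13, limma adjusted p = 0.00962). With the 5 libraries that stand apart left out of the fit, 5 of the 19 were lower and 1 was higher. In that fit 8 of the 28 lysosomal genes were higher and 0 lower. In the fit to all 16 libraries 4.44% of all tested genes were higher and 2.51% lower. The call of Atp6v0a1 was lost without any 1 of the 4 libraries (adjusted p at most 0.0748).

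Angptl2 and B4galt1 had EV above both RANKL and PBS, a pattern that was not counted over all tested genes. Angptl2, a secreted angiopoietin-like protein, was at 6.36 and 7.53 RPKM with EV, 1.75 and 1.53 RPKM with RANKL and 1.01 and 0.645 RPKM with PBS (EV minus RANKL 1.59 ± 0.13, limma adjusted p = 4.9e-05). With EV+RANKL it was at 7.21 and 7.28 RPKM. B4galt1, a galactosyltransferase, was at 27.8 and 36.3 RPKM with EV, 17.8 and 16.0 RPKM with RANKL and 13.4 and 16.6 RPKM with PBS (0.88 ± 0.15, limma adjusted p = 0.00354). Its call was lost without EV replicate 2 and without RANKL replicate 2 (adjusted p at most 0.058). Against PBS, EV was higher by 2.12 for Angptl2 and 1.04 for B4galt1 (limma adjusted p = 7.6e-06 and 0.00399), where 0.608% of all tested genes were higher. Both come from a list of 24 creatine, glycosyltransferase and adhesion genes that was drawn up after results of these libraries were known, with 5 higher and 0 lower with EV (2 to 5 without 1 of the 4 libraries).

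Genes of TGF-beta receptors and targets gave 3 higher and 0 lower of 20 tested, with a median of 0.01. Among all tested genes 4.44% were higher and 2.51% lower. Pmepa1, a feedback inhibitor of TGF-beta signalling, was at 6.27 and 14.1 RPKM with EV, 1.30 and 2.22 RPKM with RANKL and 1.36 and 4.15 RPKM with PBS (1.95 ± 0.38, limma adjusted p = 0.00864). Its call was lost without EV replicate 2 and without RANKL replicate 1 (adjusted p at most 0.113). Cd109, a co-receptor of TGF-beta, was at 17.2 and 24.2 RPKM with EV, 6.66 and 6.11 RPKM with RANKL and 14.8 and 18.1 RPKM with PBS (1.54 ± 0.16, limma adjusted p = 0.0002). Tgfbr2, the type II receptor, was called at 0.48 ± 0.13 (limma adjusted p = 0.0402), a call lost without any 1 of the 4 libraries (adjusted p at most 0.274). Without 1 of the 4 libraries, 1 or 2 of the list were higher.

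Genes of sterol synthesis that passed the test were higher with EV by small amounts. Of 25 genes of cholesterol and fatty acid synthesis, all 25 had a positive difference, with a median of 0.42. Of all 10365 tested genes, 4590 were positive and 5774 negative. Past the threshold 6 of the 25 were higher, against 4.44% of all tested genes. Fdft1, squalene synthase, was at 19.7 and 20.6 RPKM with EV, 10.4 and 12.0 RPKM with RANKL and 16.5 and 15.6 RPKM with PBS (0.80 ± 0.16, limma adjusted p = 0.0101). Fdft1 overlaps Ctsb on the other strand, so their reads may be mixed. Sqle, the next enzyme, was at 24.6 and 23.2 RPKM with EV and 15.6 and 16.6 RPKM with RANKL (0.54 ± 0.13, limma adjusted p = 0.0302). The count of the 25 genes that were higher depended on the libraries fitted. It was 14 with only the 4 libraries compared and 11 without the 5 that stand apart. Without 1 of the 4 libraries, 0 or 1 of these genes were higher, and the median stayed between 0.38 and 0.50. Of 16 genes of lipid efflux and LXR targets, Cd36 (0.96), Plin2 (0.70) and Apoe (0.38) were higher, and 0 were higher without 1 of the 4 libraries.

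Of 25 genes of ATF4 and the unfolded protein response, 6 were higher and 0 lower with EV, with a median of 0.35. Among all tested genes 4.44% were higher and 2.51% lower. Creld2 and Pdia4, which act on proteins folding in the endoplasmic reticulum, were at 0.61 ± 0.12 and 0.59 ± 0.12 (limma adjusted p = 0.00744 and 0.00914). Edem1, which marks misfolded proteins for degradation, was at 68.0 and 62.4 RPKM with EV, 48.5 and 44.1 RPKM with RANKL and 49.7 and 43.5 RPKM with PBS (0.49 ± 0.11, limma adjusted p = 0.0188). With only the 4 libraries compared, 11 of the 25 were higher, and 9 without the 5 libraries that stand apart. In this list, too, 0 or 1 genes were higher without 1 of the 4 libraries.

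In lists of energy metabolism and growth, few members or none passed the test at 48 h in the fit to all 16 libraries. There 4.44% of all tested genes were higher and 2.51% lower. Of the 10365 tested genes, 4590 had a positive and 5774 a negative difference. Of 24 genes of glycolysis and hypoxia response, 23 were positive, with a median of 0.35. Past the threshold 2 were higher, Slc16a3, a lactate exporter (0.62), and Eno1 (0.40). At an unadjusted p under 0.05 in limma, 14 of the 24 were higher at 48 h. With only the 4 libraries compared, 10 were higher past the threshold, and with only the 8 of 48 h, 13. With the 5 libraries that stand apart left out, 5 were higher past the threshold. Those 5 libraries include both EV libraries and RANKL replicate 2 of 72 h. At 72 h 21 of the 24 were higher with EV, with a median of 0.87, where 11.3% of all tested genes were higher, and 17 to 19 of the 24 were higher without 1 of the EV and RANKL libraries of 72 h. At 48 h, 0 were higher without 1 of the 4 libraries. Of 30 genes of oxidative phosphorylation and the TCA cycle, 28 were negative, 0 were called in limma and 5 were lower at an unadjusted p under 0.05, with a median of -0.14 and Uqcrc2 at the smallest adjusted p (-0.34, adjusted p = 0.053). Of 28 mitosis genes 27 were negative, 0 were called in limma and 3 were lower at an unadjusted p under 0.05, with a median of -0.17. Of 28 DNA replication genes 1 was higher, the activator E2f2 (0.64, limma adjusted p = 0.012), which lost its call without EV replicate 2 and without either RANKL library (adjusted p at most 0.152). With the 5 libraries that stand apart left out, 6, 4 and 4 genes of the oxidative, mitosis and replication lists were lower.

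Immediate early genes were mixed: Ier3 (1.12) and Egr1 (1.09) were higher and Spred1, a brake on RAS signalling, was lower with EV (-0.44), of 24 tested, and all 3 calls were lost without any 1 of the 4 libraries (limma adjusted p at most 0.124, 0.219 and 0.19). Among 13 tetraspanins, proteins abundant on vesicles, Cd151 was higher (0.42, limma adjusted p = 0.0325) and 0 were lower. Over all tested genes 4.44% were higher and 2.51% lower. The Cd151 call was lost without EV replicate 2 and without either RANKL library (adjusted p at most 0.32). Cd9, Cd63 and Cd81 were over 10 RPKM in all 4 libraries and missed the threshold (-0.11, 0.32 and 0.29, limma adjusted p = 0.794, 0.244 and 0.0691). S100a8, a neutrophil marker, was at 0.981 and 1.31 RPKM with EV and 0.0775 and 0.144 RPKM with RANKL (0.95, limma adjusted p = 0.00458), a call lost without EV replicate 2 (adjusted p = 0.0675).

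Further genes lower with EV than with RANKL belonged to no single list. Gpr132, a receptor for lipids and lactate on macrophages, was at 1.40 and 1.36 RPKM with EV, 7.61 and 8.28 RPKM with RANKL and 1.16 and 1.15 RPKM with PBS (-1.91 ± 0.16, limma adjusted p = 5.5e-05). Ltb, the cytokine lymphotoxin beta, was at 1.17 and 0.669 RPKM with EV and 5.99 and 4.15 RPKM with RANKL (-1.66 ± 0.26, limma adjusted p = 0.00248). Filip1l was at 1.90 and 2.61 RPKM with EV, 7.03 and 9.41 RPKM with RANKL and 6.19 and 10.3 RPKM with PBS (-1.50 ± 0.23, limma adjusted p = 0.00233). For Filip1l the difference came from EV: against PBS it was -1.47 with EV and 0.02 with RANKL (limma adjusted p = 0.00853 and 0.963). Filip1l overlaps Cmss1 on the other strand.

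At 72 h the same contrast was made on other libraries. Both contrasts come from 1 fit and share each gene's estimate of spread, so calls at the 2 times are not independent. There 1924 genes (18.6%) differed between EV and RANKL, 1168 higher and 756 lower with EV. The count was 831 without EV replicate 1 of 72 h, and 1498 to 2689 without 1 of the other 3. Of the 460 genes higher at 48 h, 443 had the same sign at 72 h and 319 were called higher (69.3%). At 72 h 11.3% of all tested genes were higher. Of the 260 lower at 48 h, 253 had the same sign and 174 were called lower (66.9%), where 7.29% of all tested genes were lower. None of the 720 was called in the other direction. The same sign held in 96.7% of the 720 and in 71.2% of all tested genes, and across all tested genes, which are not independent, Pearson's r was 0.68. The libraries that stand apart include both EV libraries of 72 h and RANKL replicate 2. Without RANKL replicate 2 of 72 h, 256 and 129 of the 460 and 260 were called in the same direction, and without EV replicate 1 of 72 h, 214 and 118.

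**Figure D4:**
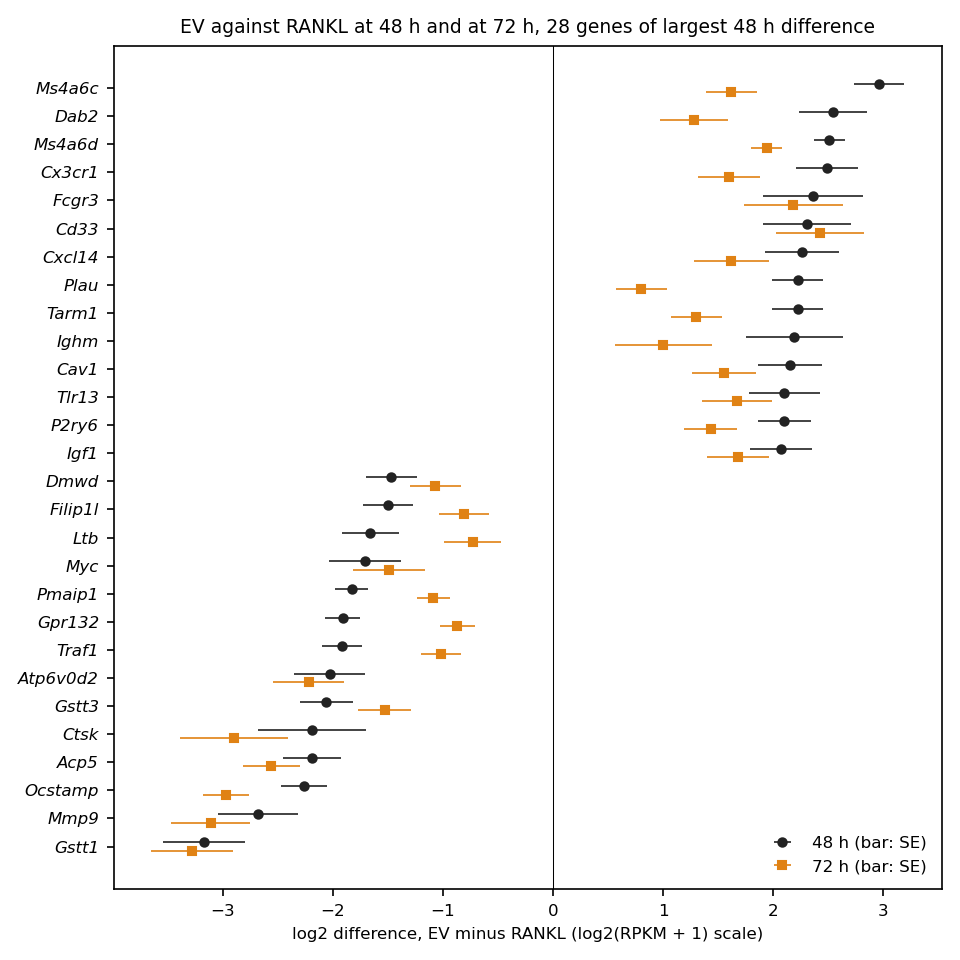
Log2 differences (EV minus RANKL) with SE of the 28 genes of largest 48 h difference, at 48 h (black circles) and 72 h (orange squares). All 28 keep their sign, and 26 are past the threshold at 72 h.

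Of the 28 leading genes, 26 were called in the same direction at 72 h (22 to 26 without 1 of the 72 h libraries), and the exceptions Ighm and Ltb were at 1.0 and -0.73 (limma adjusted p = 0.133 and 0.0681). The osteoclast genes differed at 72 h by -2.56 for Acp5, -3.11 for Mmp9, -2.97 for Ocstamp and -1.97 for Nfatc1. Angptl2 and Cd109 were at 0.58 and 0.42 at 72 h, against 1.59 and 1.54 at 48 h. The test of the change between times called 0 genes in limma (smallest adjusted p = 0.265), so none of these shifts passed it. At an unadjusted p under 0.05 there were 995 genes (9.6%). Without RANKL replicate 2 of 72 h 144 genes were called, without EV replicate 2 of 72 h 33, and without RANKL replicate 1 of 72 h 3.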

How the data were processed

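RNA was extracted from RAW264.7 cell pellets and made into libraries with a TruSeq mRNA kit. The submitters' processing notes list FastQC, HISAT2 and Partek and the builds GRCh38 and hg38, which are human, although the genes carry mouse symbols. Which mouse build, annotation and strand setting were used is not given in the sources used here. The deposited values are read here as log2(RPKM + 1), a unit that was found from the values and that no source states. From single-exon genes the depth was put at 18.28 to 19.92 M reads (M for mega) per library, where 3 reads in 1 kb are worth 0.151 to 0.164 RPKM.

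limma 3.58.1 in R 4.3.3 was fitted to all 16 libraries with 8 group means and a variance trend, over the 10365 of 20490 genes whose value was at least 1 in at least 2 libraries. Benjamini-Hochberg adjustment was used with a threshold of 0.05. The fit was tested on simulated data. Nothing in the labels states that the libraries came from separate cultures, so the p-values reflect only spread among these samples, possibly technical. The column of 1 EV+RANKL library at 48 h lacks the letter for RANKL, and only its group was taken from its name. The members and lists were chosen with earlier results of these data known. Named are the 14 genes of largest difference in each direction that passed the threshold, reached 5 RPKM in the higher group and had no overlap between groups. Up to 4 genes per list by adjusted p were added, with a set of osteoclast, macrophage and vesicle genes. Of the 720 called genes, 23 are predicted genes or pseudogenes and are left unnamed. A gene that the rule names is not reported here. Genes named beyond this rule were picked after their values were seen: Src, Slc9b2, Car2, Rufy4, Bcl2l1, Runx2 and those under other observations. Alternatives covered the samples fitted, filter, added constant, scaling, variance trend, replicate block and leaving out libraries.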

Additional observations from a re-analysis of the deposited data

How the results depend on the processing

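Of 720 genes called at 48 h (460 higher, 260 lower with EV), the number moved with the libraries in the fit. It was 1358 (711 and 647) with only the 4 libraries compared, 1838 (900 and 938) with only the 8 of 48 h, and 1475 (754 and 721) without the 5 libraries that stand apart, the last an alternative chosen after seeing the data. Leaving out each of the 4 libraries in turn gave 198 to 329 genes, 122 to 240 higher and 64 to 99 lower; the lone library of a group is then assumed to vary like the others. In all 4 of these fits 146 genes were called (95 higher, 51 lower), among them 23 of the 28 leading genes. Leaving out each EV or RANKL library of 72 h, also added later, gave 911 to 1006, with 575 to 579 higher and 336 to 427 lower. Other filters, added constants, scalings and no trend gave 545 to 801. The causes of these shifts were not tested. No named gene reversed its direction past the threshold in any fit run.

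The change between times was called for 0 genes, 13 with no filter on low values, and 0 to 144 when leaving out 1 library of either time. With the replicate number as a block, 1020 genes differed at 48 h, 615 higher and 405 lower, and 0 changed over time. Among the list counts that the block moved by over 1.5 times were cytokines from 5 to 10 higher, lysosomal hydrolases from 3 to 6, lipid efflux from 3 to 5, repressors of osteoclast formation from 2 to 5 lower and RANK signalling from 0 to 2 lower. Deviations of same-numbered libraries correlated at 0.25 between EV and RANKL at 48 h, at 0.14 to 0.48 over the 6 pairs of 48 h groups and at -0.11 to 0.53 over all 28 pairs of groups. With 2 numbers and no label that ties them to a shared batch or culture, the numbers were not treated as a pairing. Depth limits genes under about 1 RPKM, whose differences rest on few reads.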

Other observations

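Several genes outside the lists were higher with EV than with both RANKL and PBS at 48 h, and were picked after their values were seen. Nt5e, the ectoenzyme that makes adenosine from AMP, was at 1.85 and 3.74 RPKM with EV, 0.141 and 0.137 RPKM with RANKL and 0.445 and 0.849 RPKM with PBS (EV minus RANKL 1.69 ± 0.19, limma adjusted p = 0.0003). Gna15, a G protein subunit of blood cells, was at 5.59 and 6.75 RPKM with EV, 1.11 and 1.57 RPKM with RANKL and 3.78 and 3.60 RPKM with PBS (1.62 ± 0.13, limma adjusted p = 4.8e-05). Chst3, a chondroitin sulfotransferase, was at 5.83 and 6.59 RPKM with EV, 2.18 and 2.36 RPKM with RANKL and 2.90 and 3.43 RPKM with PBS (1.14 ± 0.12, limma adjusted p = 0.00029). Socs3, a feedback inhibitor of cytokine receptors, was at 6.70 and 6.76 RPKM with EV, 1.90 and 1.16 RPKM with RANKL and 3.24 and 2.64 RPKM with PBS (1.63 ± 0.32, limma adjusted p = 0.00856). In each of these 4 genes the EV libraries lay above all 4 RANKL and PBS libraries, the pattern for which they were picked. EV lay above RANKL without overlap in 27% of all tested genes, and the share that also lay above PBS was not counted. Tests of these 4 genes against PBS, and fits without 1 of the libraries, are not given here.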
